A study of Homo sapiens with 21 samples.

Results

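The 36 genes described here encode the parts of the proteasome and the transcription factor NFE2L1. They were chosen by symbol from the 60671 genes of a table of RNA-sequencing read counts, and each symbol matched 1 Ensembl gene. The set holds the 14 genes of the core (PSMA1 to PSMA7 and PSMB1 to PSMB7), 9 genes of the base of the regulatory particle (PSMC1 to PSMC6, PSMD1, PSMD2 and PSMD4), 8 genes of its lid (PSMD3, PSMD6, PSMD7, PSMD8, PSMD11, PSMD12, PSMD13 and PSMD14), 4 activators (PSME1 to PSME4) and NFE2L1. All 36 passed the filter on low counts, a CPM of 1 or more in 8 or more libraries (CPM are read counts scaled to a common library size), which 14012 genes passed in all.

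The study asked how cells answer stress of the endoplasmic reticulum (ER), which was induced with tunicamycin, an inhibitor of N-linked glycosylation that leaves new glycoproteins unfolded. Polyadenylated RNA was sequenced from OCI-AML3, a line grown from human acute myeloid leukaemia, and from HEK293T, a line of human embryonic kidney origin that carries the SV40 large T antigen. The OCI-AML3 groups were untreated cells at 0 h, cells in DMSO for 4 h, cells in tunicamycin for 4 h, cells in DMSO for 24 h and cells in tunicamycin for 24 h. HEK293T cells were sampled after 24 h in either DMSO or tunicamycin. Tunicamycin was given at 1 μg/mL, and each of the 7 groups had 3 libraries. Each line is a single model of its tissue, so a difference between the lines cannot be told apart from a difference in tissue, medium or growth as adherent cells.

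The proteasome degrades proteins that carry ubiquitin chains. Its barrel-shaped core holds the proteolytic sites on its inner β rings, and its outer α rings form the gate through which substrates enter. The regulatory particle caps the barrel: the ATPases of its base unfold substrates and thread them inwards, other base subunits bind ubiquitin, and the lid holds the deubiquitinase PSMD14. The activators PSME1 to PSME4 cap the core in place of the regulatory particle and need no ATP. NFE2L1 (also called NRF1) is made as a glycoprotein of the ER membrane, is drawn out into the cytosol and is usually degraded by the proteasome itself. When it escapes degradation it is deglycosylated, cleaved and moves to the nucleus, where it binds antioxidant response elements and activates the genes for proteasome subunits.

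The letters of that element were looked for in the RefSeq promoters (GRCh38.p14), each 250 bases before and 50 bases after a transcription start, on both strands. Of the 36 genes, 31 matched the promoter table with 38 promoters, and PSMA7, PSMB1, PSMB6, PSMB7 and PSMD4 had no entry. The core of the antioxidant response element, TGACNNNGC, was found in 10 of the 38 promoters (26.3%), against 13.3% of all 35116 promoters of the same length. The ER stress response element, CCAAT followed by 9 bases of any kind and CCACG, was in 0 of the 38 promoters and in 0.0769% of all promoters. The C/EBP-ATF element TGATGNAA was in 0 of the 38 and in 3.62% of all. A match is a run of letters and not a site at which binding was measured. In 8 genes a TGACNNNGC match lay before the start. These 8 are printed because NFE2L1 is known to bind this element, each 5′ to 3′ in the direction of its gene with the match in capitals, and for PSMC5 and PSME4 the match reads on the opposite strand.
PSMA4: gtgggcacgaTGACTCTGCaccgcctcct
PSMB3: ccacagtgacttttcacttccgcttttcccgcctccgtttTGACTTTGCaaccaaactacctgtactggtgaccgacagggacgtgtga
PSMC5: gaccggatctGCTGTGTCAgcgccgccct
PSMD12: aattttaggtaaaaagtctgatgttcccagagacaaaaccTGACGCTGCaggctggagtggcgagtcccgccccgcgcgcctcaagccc
PSMD3: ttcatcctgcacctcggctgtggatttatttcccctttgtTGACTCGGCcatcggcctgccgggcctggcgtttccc
PSME1: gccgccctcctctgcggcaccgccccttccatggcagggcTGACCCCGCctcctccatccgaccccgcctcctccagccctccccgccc
PSME2: ccctggactgTGACCCAGCcagcaccgcc
PSME4: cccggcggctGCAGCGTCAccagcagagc

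These stretches lie at chr15:78540650-78540678 (PSMA4, plus strand), chr17:38752597-38752685 (PSMB3, plus strand), chr17:63827654-63827682 (PSMC5, plus strand) and chr17:67366694-67366782 (PSMD12, minus strand). The others lie at chr17:39980730-39980806 (PSMD3, plus strand), chr14:24136068-24136156 (PSME1, plus strand), chr14:24146767-24146795 (PSME2, minus strand) and chr2:53971009-53971037 (PSME4, minus strand). The match began between 34 bases before the start (PSME4) and 175 bases before it (PSME2). In PSMA4, PSMC5, PSME2 and PSME4 the surrounding bases meet an annotated exon of another transcript model, of the same or another gene. Those stretches are printed with 10 bases on each side of the match, and they still meet such an exon.

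Library totals ran from 13838466 to 19961798 counts. The spread between the libraries of a group is the error in every test below, and since the labels do not say whether the 3 libraries came from separate cultures, it may be technical. Among the markers of OCI-AML3, SPI1 and PTPRC stood at 286 and 298 CPM in its DMSO 24 h libraries while MPO was at 1.27 CPM, and HOXA9 was lower there (59.2 CPM) than in HEK293T (127 CPM). In HEK293T at the same time, NEFM stood at 107 CPM, and PAX2 was at 1.11 CPM. HSPA5, the main ER chaperone and a standard read-out of this stress, rose by 3.29 (log2) at 4 h and by 3.52 at 24 h in OCI-AML3, and by 2.7 in HEK293T. In OCI-AML3, some libraries stood apart for the proteasome genes. DMSO 4 h replicate 1 was the highest of its group for 31 of the 36 genes. Tunicamycin 24 h replicate 3 was the lowest of its group for 30, and replicate 2 of that group was the highest for 28. Tunicamycin 4 h replicate 3 was the lowest of its group for 28. In these bulk samples, less RNA per cell and fewer cells of a type cannot be told apart. The counting strand was not given in the sources used here; 9 of the 36 genes overlap another gene on the same strand, 17 overlap one on the other strand, and 15 have named pseudogenes, with the most for PSMC1 (13) and PSME2 (6), so their counts are less certain.

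Levels were compared between genes as CPM per kilobase of the MANE Select transcript. In untreated OCI-AML3 the core genes ran from 38.8 CPM per kilobase for PSMB2 to 480 for PSMB4, with a median of 151. The base and lid genes ran from 34.6 for PSMD11 to 244 for PSMD4, a ubiquitin receptor, with a median of 77.0. The activators spread more widely, from 12.1 for PSME4, a nuclear activator also called PA200, to 324 for PSME2, a subunit of the interferon-inducible activator PA28. PSMB2 and PSMB4, whose products sit in equal numbers in the same ring, thus differed 12.4-fold in CPM per kilobase. Before division by length they stood at 172 and 440 CPM, and the lengths used were 4426 and 918 bases. Which transcript forms the cells used was not measured, so the fold depends on these lengths. In HEK293T in DMSO the order among activators was different, with PSME3 highest at 95.8 CPM per kilobase and PSME2 at 44.2. NFE2L1 stood at 39.6 CPM per kilobase in untreated OCI-AML3 and at 26.5 in HEK293T in DMSO.

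In DMSO at 24 h the ratio of HEK293T to OCI-AML3 had a median of 1.05 over the 36 genes. Single genes lay well to both sides of it, such as PSMA6 (0.551), PSMB4 (0.605), PSMD11 (1.73) and PSMA4 (1.77). The interferon-inducible pair PSME1 and PSME2 stood apart, at 0.126 and 0.179 of the OCI-AML3 level. PSMD6 was at the other end, with a ratio of 2.19. NFE2L1 was lower in HEK293T, with a ratio of 0.653. In all, 20 genes were higher in HEK293T and 16 were lower, and these ratios were not tested.

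Summed over the 14 core genes, untreated OCI-AML3 libraries held 3165, 3118 and 2944 CPM (mean 3076 ± 116, SD, n = 3). The DMSO 4 h libraries held 3397, 2709 and 2816 CPM, and the tunicamycin 4 h libraries 2812, 2891 and 2769 CPM. At 24 h the DMSO libraries held 2549, 2763 and 2891 CPM, while those with tunicamycin held 1770, 1983 and 1516 CPM. The groups therefore ran, from high to low, from untreated through DMSO 4 h, tunicamycin 4 h and DMSO 24 h to tunicamycin 24 h, and of these neighbours only the last did not overlap the group before it. In HEK293T the core sum was 2543 ± 22.1 CPM in DMSO and 2114 ± 46.9 CPM in tunicamycin (SD, n = 3), and the libraries did not overlap.

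Each of the 35 subunit and activator genes had its lowest OCI-AML3 mean in the group with 24 h of tunicamycin. Set against untreated cells at 100%, their median level was 97.9% in DMSO at 4 h, 94.8% in tunicamycin at 4 h, 80.2% in DMSO at 24 h and 55.7% in tunicamycin at 24 h. In that last group PSMD1, the large scaffold of the base, was lowest at 33.7% of its untreated level, and PSME1 was highest at 84.7%.

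**Figure D1:**
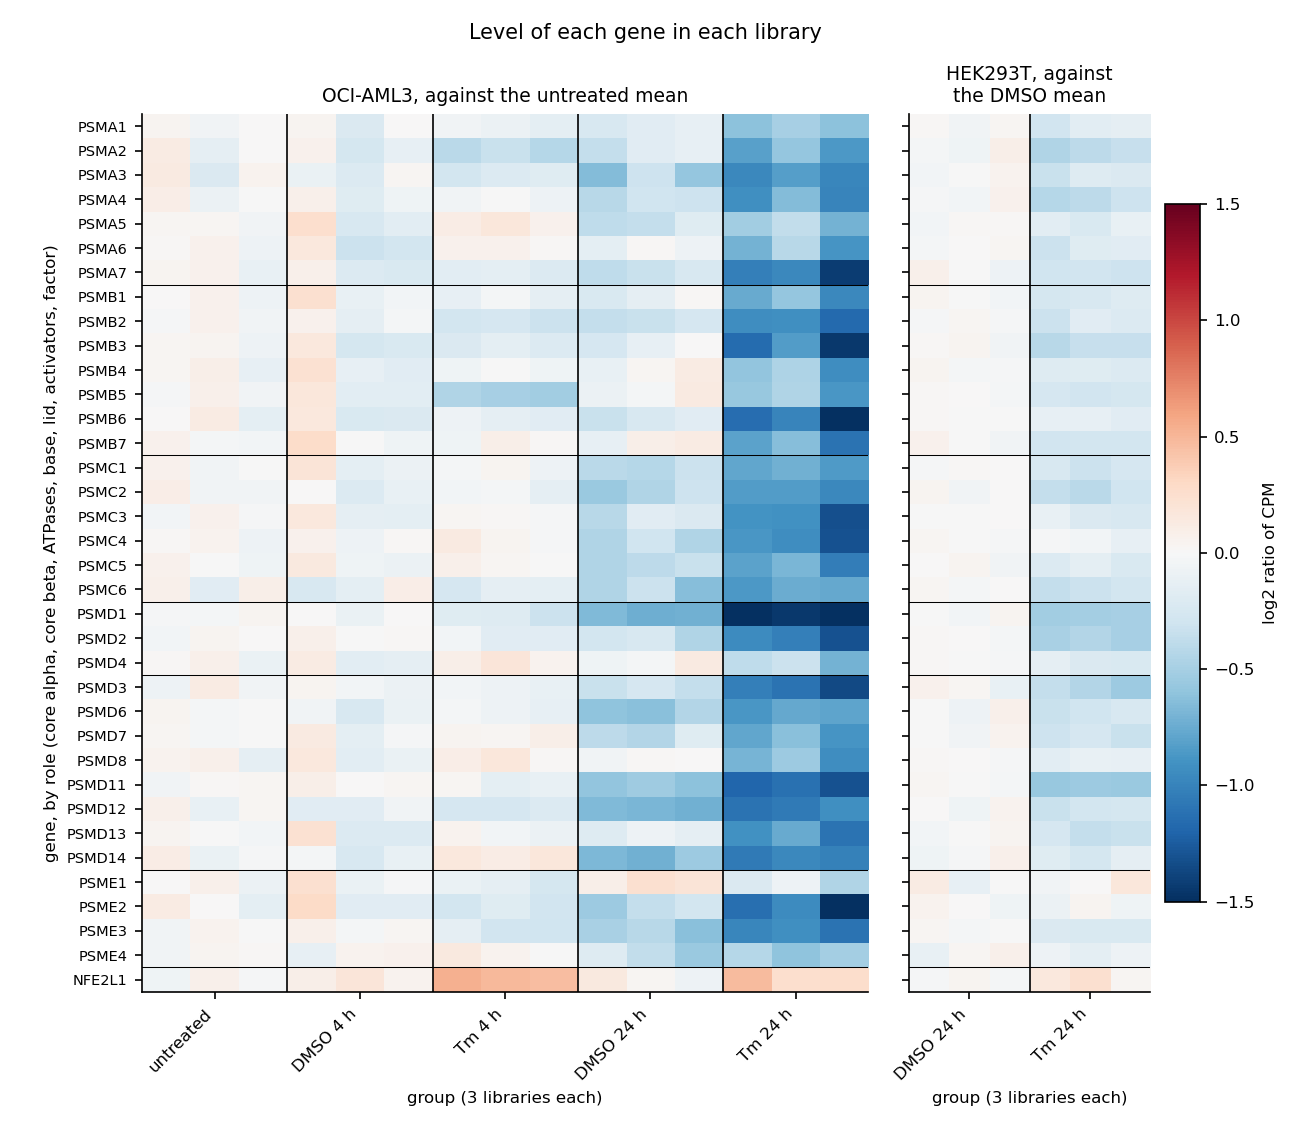
Log2 ratio of CPM for the 36 genes (rows, by role) in all 21 libraries (columns, by group), taken to the gene's mean in untreated cells for OCI-AML3 and to its mean in DMSO for HEK293T, with Tm for tunicamycin. The 3 OCI-AML3 libraries with 24 h of tunicamycin are low for nearly every subunit gene, while NFE2L1 is above its untreated mean in them.

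At 4 h of tunicamycin in OCI-AML3, few proteasome genes changed, and NFE2L1 rose. Of the 36 genes, 5 fell (18.9% of all genes tested fell) and 2 rose (18.5% of all genes rose) at an adjusted p of at most 0.05 in edgeR's quasi-likelihood test. None passed both that threshold and a log2 fold change beyond 1 in edgeR, DESeq2 or limma voom; in edgeR 4.92% of all genes passed. The genes that fell were PSMA2, PSMB2, PSMB5, PSMD1 and PSME3, and those that rose were PSMD14 and NFE2L1. The median log2 fold change over the 36 genes was -0.04, against -0.02 over all genes. It was 0.06 without DMSO 4 h replicate 1, and there the count that rose was 6 (PSMA5, PSMA6, PSMD4, PSMD8, PSMD14 and NFE2L1). Without tunicamycin 4 h replicate 3 the count that fell was 3. With the trend on GC content or on transcript length removed, 8 fell and 4 rose under either. Libraries did not overlap for 8 genes that were lower with tunicamycin (23.4% of all genes) and 2 that were higher (22.9% of all genes).

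NFE2L1, at chr17:48048329-48061545 on the plus strand, was measured at 204, 216 and 199 CPM in DMSO at 4 h and at 278, 269 and 265 CPM in tunicamycin. The 3 treated libraries were all above the 3 controls, and the log2 fold change was 0.39 ± 0.07 (SE; edgeR adjusted p = 0.00013). At 24 h it was at 212, 195 and 182 CPM in DMSO and at 266, 229 and 229 CPM in tunicamycin, again without overlap. The rise was 0.30 ± 0.07 (edgeR adjusted p = 0.0015). In HEK293T the values were 127, 132 and 126 CPM in DMSO and 143, 152 and 131 CPM in tunicamycin, so that the lowest treated library lay among the controls. The log2 fold change there was 0.15 ± 0.07 (edgeR adjusted p = 0.14), which did not pass the threshold, though it passed with only the HEK293T groups fitted (0.162, edgeR adjusted p = 0.013) and with the GC trend removed (0.163, edgeR adjusted p = 0.05). The difference in its effect between the lines was -0.15 ± 0.10 (edgeR adjusted p = 0.29) and between the times in OCI-AML3 -0.09 ± 0.10 (edgeR adjusted p = 0.49). NFE2L1 was the 1 gene of the 36 that rose at both times in OCI-AML3.

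Among the genes that fell at 4 h, PSMB5, the core subunit with chymotrypsin-like activity and the main target of the drug bortezomib, fell most. It went from 195, 157 and 156 CPM in DMSO to 127, 123 and 121 CPM in tunicamycin, with no overlap and a log2 fold change of -0.45 ± 0.09 (edgeR adjusted p = 0.00038). PSMA2, of the outer ring, went from 214, 171 and 189 CPM to 155, 164 and 153 CPM. Its log2 fold change of -0.28 ± 0.09 (edgeR adjusted p = 0.014) did not pass without DMSO 4 h replicate 1 (-0.19) or without tunicamycin 4 h replicate 3 (-0.26). PSME3, the nuclear activator PA28γ, went from 296, 275 and 286 CPM to 254, 230 and 227 CPM (-0.27 ± 0.06, edgeR adjusted p = 0.002). The other proteolytic subunits, PSMB6 (-0.04 ± 0.11) and PSMB7 (-0.06 ± 0.10), did not pass, and the sign of both turned without DMSO 4 h replicate 1.

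PSMD14 was the 1 subunit gene that rose at 4 h. This metalloprotease of the lid removes ubiquitin chains from substrates as they enter. It stood at 118, 102 and 111 CPM in DMSO and at 135, 131 and 135 CPM in tunicamycin, without overlap (0.27 ± 0.07, edgeR adjusted p = 0.0032). PSMA6, the third highest by fold change, went from 238, 171 and 177 CPM to 223, 222 and 217 CPM (0.18 ± 0.10, edgeR adjusted p = 0.19). The highest of its libraries was a control, DMSO 4 h replicate 1, and the gene passed without that library.

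**Figure D2:**
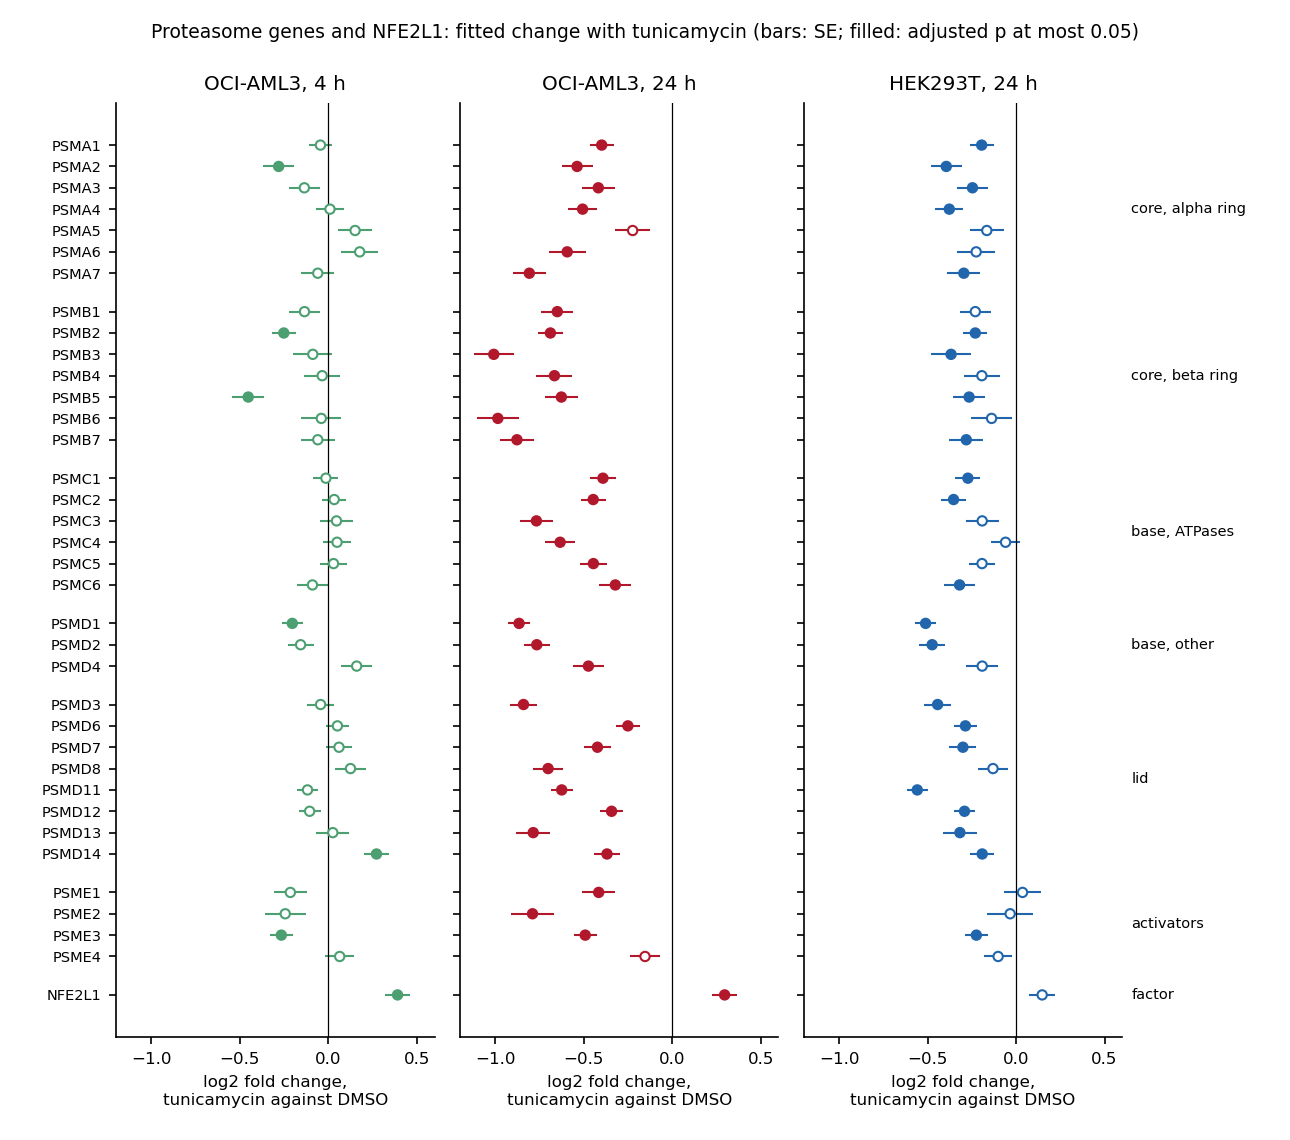
Log2 fold change of tunicamycin against DMSO for each of the 36 genes, with bars of 1 standard error, in OCI-AML3 at 4 h and 24 h and in HEK293T at 24 h. Filled points passed an adjusted p of 0.05. In OCI-AML3 the medians were -0.04 at 4 h and -0.57 at 24 h, with NFE2L1 above 0 at both times.

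At 24 h of tunicamycin in OCI-AML3, the transcripts of nearly all proteasome genes fell while that of NFE2L1 stayed above its control. Of the 36 genes, 33 fell (27.7% of all genes tested fell) and 1, NFE2L1, rose (23.5% of all genes rose). The median log2 fold change was -0.57 over the 36 genes and -0.01 over all genes tested. Of the 36, only PSMB3 passed both thresholds (6.32% of all genes did). Libraries did not overlap for 33 genes, which were lower with tunicamycin (27.8% of all genes), and for NFE2L1, which was higher (25.0% of all genes). Without tunicamycin 24 h replicate 3, the library lowest for most of these genes, 33 still fell and 1 rose.

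By role, 6 of the 7 α-ring genes, 7 of 7 β-ring genes, 6 of 6 ATPases, 3 of 3 other base genes, 8 of 8 lid genes and 3 of 4 activators fell. The 2 subunit genes that did not pass were PSMA5 and PSME4. PSMA5 went from 122, 124 and 140 CPM to 111, 123 and 97.5 CPM, with overlap (-0.22 ± 0.10, edgeR adjusted p = 0.06), and passed without tunicamycin 24 h replicate 2. It also passed with no filter beyond 1 count (-0.242), with the GC trend removed (-0.449) and with the length trend removed (-0.265). PSME4 went from 77.2, 68.0 and 59.8 CPM to 65.1, 57.7 and 61.5 CPM, with overlap (-0.15 ± 0.08, edgeR adjusted p = 0.13). It passed with the GC trend removed (-0.265, edgeR adjusted p = 0.013) and with the length trend removed (-0.286, edgeR adjusted p = 0.0017).

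The 3 lowest log2 fold changes of the 36 were those of β-ring genes, PSMB3, PSMB6 and PSMB7. PSMB3, a β subunit without proteolytic activity, went from 148, 162 and 178 CPM in DMSO to 79.5, 98.8 and 64.9 CPM in tunicamycin. Its libraries did not overlap, and its log2 fold change was -1.01 ± 0.11 (edgeR adjusted p = 2.2e-07), a fall of 50.3%. It was called lower under every alternative, but it lies on the edge of the fold threshold, with no gene of the 36 past both thresholds in DESeq2 and PSMB3 and PSMB6 past both in limma voom. PSMB6, which cuts after acidic residues, went from 98.0, 105 and 110 CPM to 56.1, 62.4 and 39.9 CPM (-0.99 ± 0.12, edgeR adjusted p = 5e-07). PSMB7, which cuts after basic residues, went from 137, 159 and 162 CPM to 85.3, 95.3 and 68.9 CPM (-0.88 ± 0.10, edgeR adjusted p = 1.7e-07). PSMB5 went from 163, 170 and 191 CPM to 118, 127 and 94.9 CPM (-0.63 ± 0.09, edgeR adjusted p = 7.1e-06). Treated and control libraries did not overlap for any of these 3 proteolytic subunits. In the α ring, PSMA2 fell by 0.54 and PSMA6 by 0.59 on the log2 scale.

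In the regulatory particle, PSMD1 went from 128, 122 and 123 CPM to 66.1, 74.1 and 64.5 CPM. Its log2 fold change of -0.87 ± 0.06 had the smallest adjusted p of the 36 genes (1.4e-10, edgeR). PSMD2, which binds ubiquitin-like domains of shuttle proteins, went from 270, 277 and 241 CPM to 170, 161 and 132 CPM (-0.77 ± 0.07, edgeR adjusted p = 2.2e-08). In the lid, PSMD8 went from 199, 209 and 207 CPM to 128, 142 and 109 CPM (-0.70 ± 0.09, edgeR adjusted p = 6.8e-07). PSMD11, a lid subunit tied to assembly of the particle, went from 88.7, 91.9 and 87 CPM to 58.5, 61.4 and 53.9 CPM (-0.62 ± 0.06, edgeR adjusted p = 3.1e-08). PSMD14 went from 75.7, 73.4 and 82.8 CPM to 58.0, 62.0 and 59.6 CPM (-0.37 ± 0.07, edgeR adjusted p = 0.00019), the reverse of its direction at 4 h. None of these 5 genes had a treated library as high as a control.

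Among the activators, PSME2 fell most, from 176, 200 and 212 CPM to 117, 133 and 91.2 CPM (-0.79 ± 0.12, edgeR adjusted p = 1e-05). Its partner PSME1 went from 211, 235 and 228 CPM to 172, 188 and 146 CPM (-0.42 ± 0.09, edgeR adjusted p = 0.00081). PSME3 went from 201, 210 and 181 CPM to 143, 148 and 130 CPM (-0.49 ± 0.07, edgeR adjusted p = 1.8e-06). For all 3 the treated libraries lay below the controls.

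**Figure D3:**
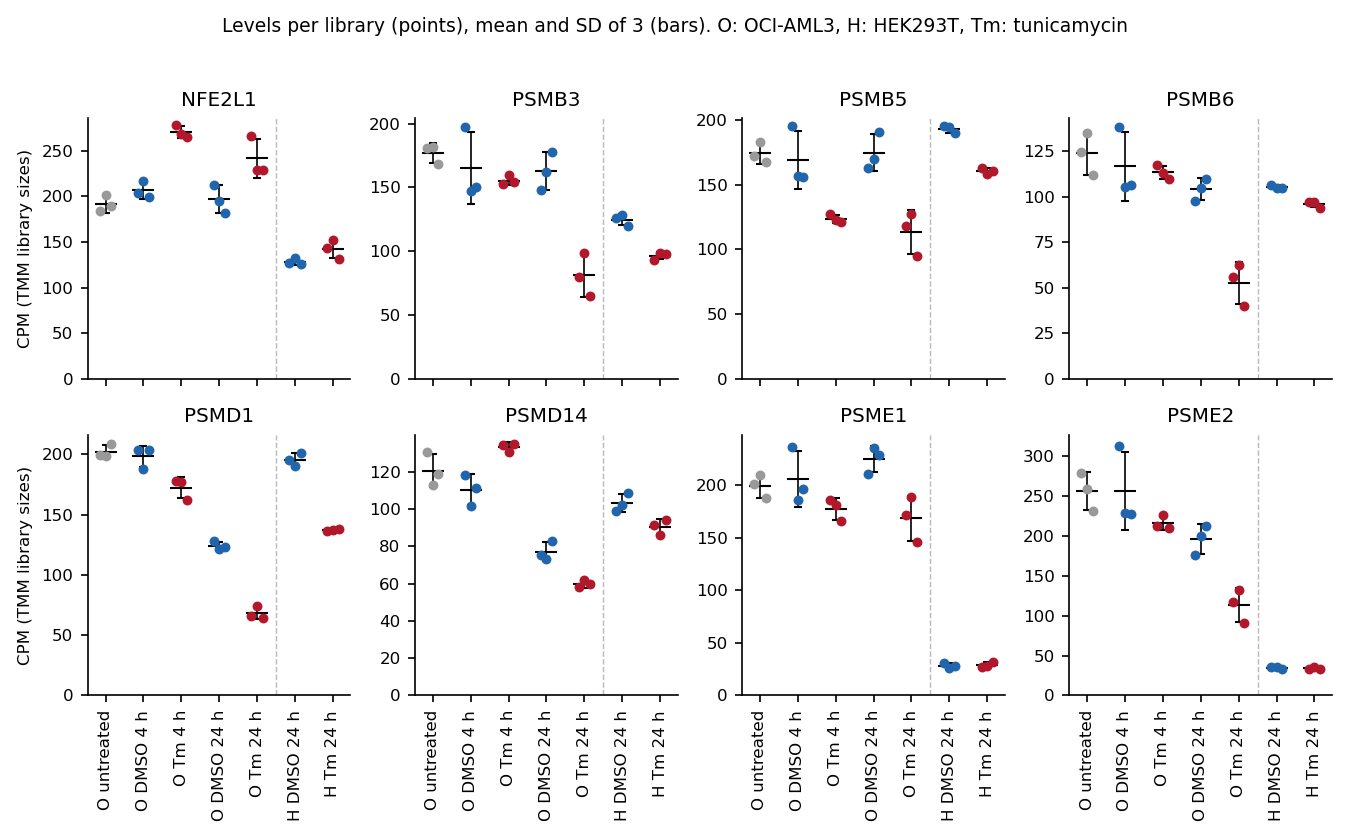
CPM of NFE2L1, PSMB3, PSMB5, PSMB6, PSMD1, PSMD14, PSME1 and PSME2 in each of the 7 groups, on axes that start at 0. Points are the 3 libraries, and bars the mean and SD. PSMB6 is low with tunicamycin in OCI-AML3 at 24 h alone, PSMD1 is lower in DMSO at 24 h than at 4 h and lower again with tunicamycin, and PSME1 and PSME2 are low in both HEK293T groups.

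In HEK293T at 24 h, 22 of the 36 genes fell (13.1% of all genes tested fell) and 0 rose (12.6% of all genes rose). None rose at an unadjusted p under 0.05 in edgeR fitted over all groups, nor at an adjusted p of at most 0.05 with DESeq2 or limma voom, and NFE2L1 rose with only the HEK293T groups fitted or with the GC trend removed. No gene of the 36 passed both thresholds in edgeR, DESeq2 or limma voom, and 2.13% of all genes did in edgeR. The median log2 fold change was -0.24 over the 36 genes and -0.01 over all genes. Libraries did not overlap for 31 genes, all lower with tunicamycin (25.7% of all genes, with 23.4% higher). The count that fell was 14 without tunicamycin replicate 1. The 22 genes were among the 33 that fell in OCI-AML3 at 24 h, so the shared genes were all of the HEK293T list and 66.7% of the OCI-AML3 list. Over all genes these shares were 60.3% and 28.6%, and with 33 of 36 genes lower in OCI-AML3 it was nearly fixed for this set. By role, 5 of 7 α-ring genes, 4 of 7 β-ring genes, 3 of 6 ATPases, 2 of 3 other base genes, 7 of 8 lid genes and 1 of 4 activators fell. The core counts were lower with any 1 HEK293T library left out. Without tunicamycin replicate 1, only PSMA2 and PSMA4 of the core fell, and without DMSO replicate 2 only PSMA1, PSMA2 and PSMA4. The median over the 36 genes stayed at -0.255 to -0.233 in these leave-outs. With only the HEK293T groups fitted every core gene fell, and no core gene had a treated library as high as a control.

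The 3 genes with the largest falls in HEK293T were in the regulatory particle. PSMD11 went from 158, 154 and 151 CPM to 104, 105 and 104 CPM (-0.56 ± 0.06, edgeR adjusted p = 2.1e-07). PSMD1 went from 195, 191 and 201 CPM to 136, 137 and 138 CPM (-0.51 ± 0.06, edgeR adjusted p = 7.8e-07). PSMD2 went from 255, 253 and 247 CPM to 180, 186 and 178 CPM, a fall of 28.0% (edgeR adjusted p = 4e-05). The 3 genes had no overlap between treated and control libraries.

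Of the proteolytic subunits, PSMB5 went from 196, 194 and 190 CPM to 163, 158 and 161 CPM (-0.27 ± 0.09, edgeR adjusted p = 0.032), and PSMB7 from 166, 158 and 154 CPM to 130, 131 and 131 CPM (-0.28 ± 0.10, edgeR adjusted p = 0.032). PSMB6 went from 107, 105 and 105 CPM to 96.9, 97.0 and 93.9 CPM (-0.14 ± 0.11, edgeR adjusted p = 0.41). Its libraries did not overlap, and it passed with only the HEK293T groups fitted (-0.125, edgeR adjusted p = 0.034). PSMB5 lost its call when any 1 of the 6 HEK293T libraries was left out (-0.28 to -0.26). PSMB7 lost it with 5 of the 6. PSMB3 went from 126, 128 and 120 CPM to 93.3, 98.4 and 98.2 CPM (-0.37 ± 0.11, edgeR adjusted p = 0.018), and lost its call without DMSO replicate 1 or 2 or tunicamycin replicate 1. PSMD14 went from 99.3, 102 and 109 CPM to 91.4, 86.1 and 94.3 CPM (-0.19 ± 0.07, edgeR adjusted p = 0.044), and lost its call in 5 leave-outs.

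The interferon-inducible activators, low in this line, stayed near their controls. PSME1 was at 30.8, 25.9 and 28.1 CPM in DMSO and at 27.2, 28.3 and 31.7 CPM in tunicamycin (0.04 ± 0.10, edgeR adjusted p = 0.86). Its sign turned without DMSO replicate 2 (-0.022) or tunicamycin replicate 3 (-0.026). PSME2 was at 36.4, 35.1 and 33.6 CPM and then at 32.9, 36.1 and 33.6 CPM (-0.03 ± 0.13, edgeR adjusted p = 0.9). PSME3 fell from 310, 300 and 304 CPM to 263, 260 and 259 CPM (-0.23 ± 0.06, edgeR adjusted p = 0.011). PSME4 went from 95.2, 105 and 109 CPM to 97.5, 92.9 and 97.8 CPM (-0.10 ± 0.08, edgeR adjusted p = 0.39).

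**Figure D4:**
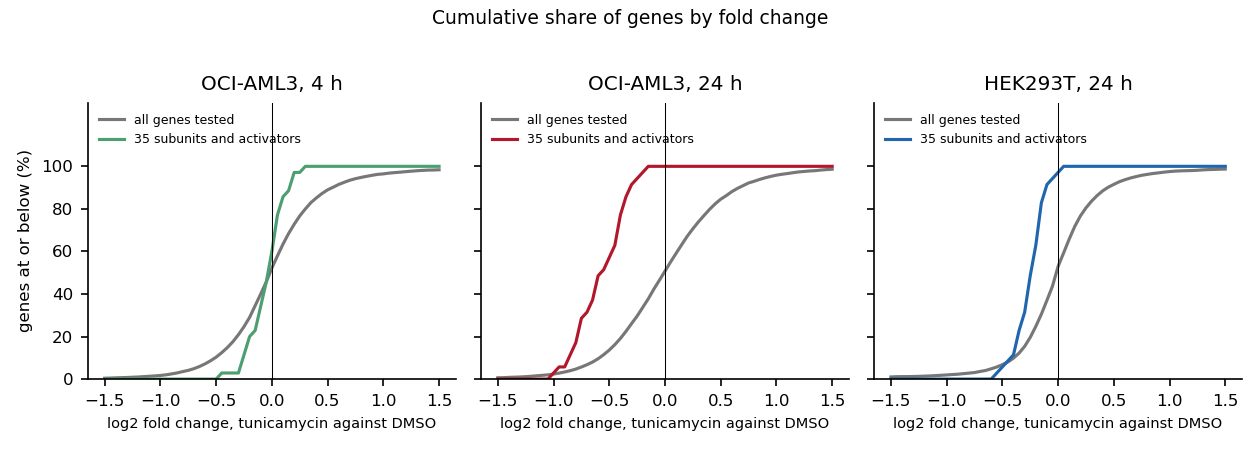
Cumulative share (percent) of genes at or below each log2 fold change of tunicamycin against DMSO, for the 35 subunit and activator genes and for all 14012 genes tested, in the 3 comparisons. At 24 h in OCI-AML3 all 35 lie below the median of all genes, in HEK293T 34 do, and at 4 h 20 do.

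The 3 comparisons had separate control libraries, and 5 of the 36 genes fell in all of them (3.85% of all genes): PSMA2, PSMB2, PSMB5, PSMD1 and PSME3. The count was 3 without tunicamycin 4 h replicate 3 of OCI-AML3, where PSMA2 and PSMD1 did not pass at 4 h, and 3 without DMSO replicate 2 or tunicamycin replicate 1 of HEK293T, where PSMB2 and PSMB5 did not. Whether the size of the effect differed was tested with interaction terms. Between 24 h and 4 h in OCI-AML3, the tunicamycin effect was lower at 24 h for 28 of the 36 genes (20.3% of all genes) and higher for 0 (15.1% of all genes). None was higher at an unadjusted p under 0.05 in edgeR, or by DESeq2 or limma voom. By role these were 11 of 14 core genes, 16 of 17 genes of the regulatory particle and 1 of 4 activators, PSME2. PSMB6 (-0.95 ± 0.16, edgeR adjusted p = 0.00013), PSMB3 (-0.92 ± 0.16, edgeR adjusted p = 0.00012) and PSMD8 (-0.83 ± 0.12, edgeR adjusted p = 2e-05) had the largest differences. PSMB5, which had already fallen at 4 h, did not pass (-0.17 ± 0.13, edgeR adjusted p = 0.31).

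Between the lines at 24 h, the effect was higher, that is less negative, in HEK293T for 18 of the 36 genes (15.9% of all genes) and lower for 0 (10.9% of all genes). None was lower at an unadjusted p under 0.05 in edgeR, or by DESeq2 or limma voom, though NFE2L1 was with the GC trend removed. All 7 β-ring genes were among the 18, with 1 of 7 α-ring genes (PSMA7), 2 of 6 ATPases, 2 of 3 other base genes, 3 of 8 lid genes and 3 of 4 activators. PSMB5 (0.36 ± 0.13, edgeR adjusted p = 0.041) did not pass with DESeq2, without TMM or in 11 of 12 leave-outs. PSMB1 and PSMB4 passed in only 4 of the 12 leave-outs each, PSME1 in 5 and PSME3 in 2. Under every alternative run 10 genes passed: PSMA7, PSMB2, PSMB3, PSMB6, PSMB7, PSMC3, PSMC4, PSMD1, PSMD8 and PSME2. The largest differences were those of PSMB6 (0.85 ± 0.16, edgeR adjusted p = 0.0006), PSME2 (0.76 ± 0.17, edgeR adjusted p = 0.0028) and PSMB3 (0.64 ± 0.16, edgeR adjusted p = 0.0049). For PSMD11 the difference was 0.07 ± 0.09 (edgeR adjusted p = 0.61). The count of 18 varied with the library left out. It was 10 without tunicamycin 24 h replicate 3 of OCI-AML3. It was 11 without DMSO 24 h replicate 2 of OCI-AML3 or DMSO 24 h replicate 3 of HEK293T. Leaving out tunicamycin 24 h replicate 1 or 2 of HEK293T also gave 11.

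The DMSO groups were also compared with each other and with untreated cells. Time in culture, DMSO exposure and cell density cannot be told apart there. In OCI-AML3, DMSO for 4 h against untreated cells changed 0 of the 36 genes (0.0% of all genes) in edgeR, 0 with DESeq2 and 0 with limma voom, and 1 had an unadjusted p under 0.05 in each. Between DMSO at 4 h and DMSO at 24 h, 20 fell (21.6% of all genes) and 0 rose (21% of all genes). None rose at an unadjusted p under 0.05 in edgeR, or by DESeq2 or limma voom, though 2 rose without DMSO 4 h replicate 1 (PSMA6 and PSME1). The median log2 difference was -0.28 over the 36 genes and -0.02 over all genes, and 21 genes had no overlap, all lower at 24 h (22.9% of all genes). By role 4 of 14 core genes, 13 of 17 genes of the regulatory particle and 3 of 4 activators fell. PSMD1 (-0.68 ± 0.06), PSMD11 (-0.62 ± 0.06), PSME3 (-0.53 ± 0.06) and PSMD14 (-0.52 ± 0.07) were among those that fell, while PSMB6 (-0.16 ± 0.11) and PSMB7 (-0.04 ± 0.10) did not pass. This comparison shares the DMSO 24 h libraries with the tunicamycin comparison at 24 h. Without TMM scaling, the median of all genes in it was -0.14 and that of the 36 genes -0.40.

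The subunit genes with GC-rich transcripts fell further with tunicamycin at 24 h in OCI-AML3. Across the 35 subunit and activator genes, the log2 fold change and the GC content of the transcript had a Pearson's r of -0.66 (Spearman's rho -0.65), against -0.26 across 13971 genes. The same libraries gave every point, and genes are not independent replicates. Transcript length went with the same changes, with an r of 0.41 across the 35 genes against 0.14 across all. In HEK293T r with GC content was 0.17 and at 4 h in OCI-AML3 it was -0.04. Between DMSO at 4 h and 24 h it was 0.40, against 0.30 across all genes, and r with length was -0.51, against -0.11. The part of either in the result was not tested beyond the removal of its trend. With the trend on GC content removed from each library, an alternative added after seeing the data, 35 of the 36 genes fell and 1 rose at 24 h in OCI-AML3.

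**Figure D5:**
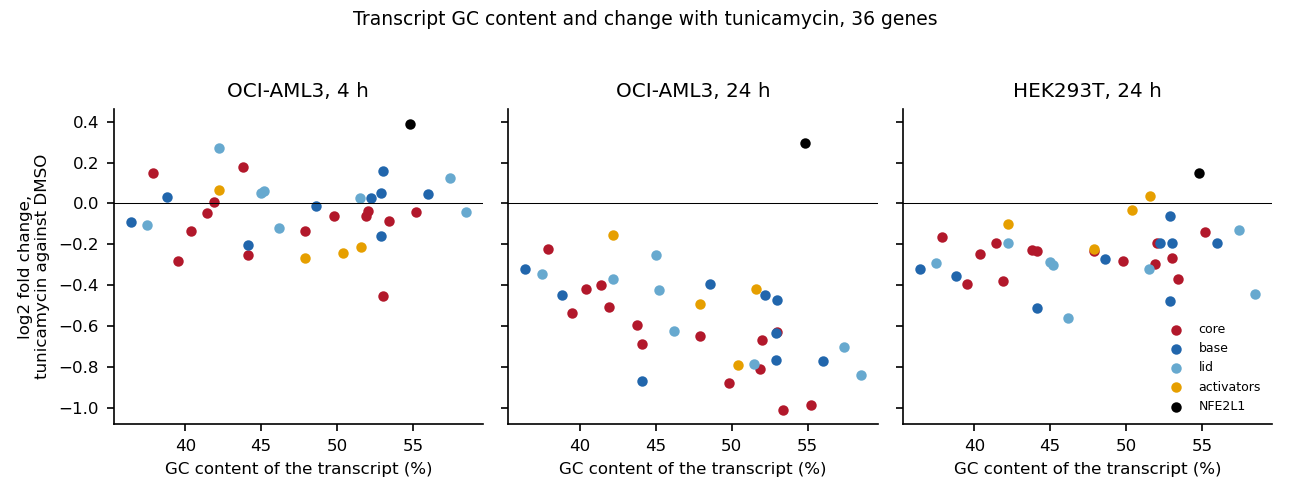
Log2 fold change of tunicamycin against DMSO and the GC content of the transcript (percent) in the 3 comparisons, 1 point for each of the 36 genes, coloured by role. At 24 h in OCI-AML3 the subunit genes of higher GC content lie lower (r = -0.66 without NFE2L1), and in HEK293T they do not (r = 0.17).

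Of the 30 subunit and activator genes with a promoter entry, 10 had a TGACNNNGC match: the 8 printed above, and PSMC4 and PSMD1, whose match lay after the start. At 24 h in OCI-AML3, 9 of the 10 genes with a match fell (27.7% of all genes), with a median of -0.57, and 19 of the 20 genes without one fell, with a median of -0.515. In HEK293T 5 of 10 and 15 of 20 fell (13.1% of all genes), with medians of -0.24 and -0.26. At 4 h the medians were -0.07 and -0.02. These counts are a description and were not tested.

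The lists that follow are read beside the shares of all genes, of which 18.9% fell and 18.5% rose at 4 h, 27.7% fell and 23.5% rose at 24 h in OCI-AML3, and 13.1% fell and 12.6% rose in HEK293T. Of 9 listed genes for NFE2L1 maturation and turnover, 2 fell and 3 rose at 4 h, 3 fell and 2 rose at 24 h, and 1 fell and 2 rose in HEK293T. SYVN1, the ubiquitin ligase of the ER membrane also known as HRD1, rose by 2.37, 2.09 and 1.23 (log2) in the 3 comparisons, and its partner SEL1L rose by 1.88, 1.97 and 1.38. NGLY1, which removes the glycans of NFE2L1, rose at 4 h (0.21, edgeR adjusted p = 0.043) and did not pass at 24 h. The protease DDI2, which cleaves NFE2L1, did not pass in any of the 3 (-0.11, 0.22 and -0.15). NPLOC4, a cofactor of the segregase VCP, fell in all 3 (-0.26, -0.31 and -0.28).

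Of 9 relatives and partners of NFE2L1, 8 were tested, and 4 fell and 2 rose at 4 h, 1 fell and 2 rose at 24 h, and 2 fell and 3 rose in HEK293T. NFE2L2, the related factor NRF2, rose by 0.52, 0.62 and 0.42 in the 3 comparisons. BACH1, a repressor at the same elements, rose by 0.69, 0.56 and 0.54. KEAP1, the adaptor that marks NFE2L2 for degradation, fell in all 3, by 0.34, 0.32 and 0.23 on the log2 scale. MAFK, a small MAF partner, fell by 0.98 at 4 h in OCI-AML3.

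Of 9 assembly chaperones of the proteasome, 2 fell and 1 rose at 4 h, 6 fell at 24 h, and 1 fell and 1 rose in HEK293T. The counts at 4 h and in HEK293T lie near those shares. PSMG1, which starts assembly of the α ring, rose by 0.41 at 4 h and fell by 0.39 at 24 h in OCI-AML3. PSMD10, the base chaperone gankyrin, fell at both times (-0.47 and -0.39). In HEK293T POMP, the maturation factor of the core, fell by 0.40. PSMG4 fell by 0.505 at 24 h in OCI-AML3.

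Of 12 further subunits and bound proteins, 3 fell and 5 rose at 4 h, 5 fell at 24 h, and 2 fell and 1 rose in HEK293T. The ubiquitin receptor ADRM1 rose by 0.30 at 4 h and fell by 0.70 at 24 h in OCI-AML3 and by 0.43 in HEK293T. SEM1, a small lid subunit, fell by 0.62 at 4 h. ECPAS rose by 0.28 at 4 h and by 0.36 in HEK293T.

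Of 5 immune and tissue-specific core subunits, 3 were tested: PSMB8, PSMB9 and PSMB10, which replace PSMB5, PSMB6 and PSMB7 in the immunoproteasome. Their log2 fold changes ran from -0.16 to -0.04 at 4 h, where none had an adjusted p of at most 0.05 in edgeR, and all 3 fell at 24 h in OCI-AML3, by 0.99, 0.82 and 0.59 on the log2 scale. In HEK293T PSMB10 fell by 0.45, and PSMB8 was at 0.0 to 0.067 CPM and PSMB9 at 0.067 to 0.667 CPM in the 6 libraries, too near 0 counts for a fold change.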

How the data were processed

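RSEM expected counts per Ensembl gene were deposited for 21 libraries. Per the labels and the study's methods, the authors aligned reads of polyadenylated RNA with STAR to the human build GRCh38, and RSEM made the gene counts. The counts were rounded to whole numbers. A gene was kept if 8 or more libraries held 1 CPM or more (14012 genes), and edgeR (4.0.16, R 4.3.3) scaled the libraries by TMM, fitted 7 group means over all 21 libraries and tested each contrast by quasi-likelihood (two-sided). P-values were adjusted by Benjamini-Hochberg over all genes tested, and "fell" and "rose" stand for an adjusted p of at most 0.05. CPM use TMM library sizes. Gene positions and transcript lengths came from GENCODE annotation of GRCh38.

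The genes, role groups and context lists were chosen with earlier results of these data known. The genes given per library were NFE2L1, the proteolytic subunits, PSMD14, the activators, those past both thresholds, the 3 highest and 3 lowest in each tunicamycin comparison and the 3 farthest from 0 in each interaction. Of context lists, at most 4 genes farthest from 0 were named in a comparison; NGLY1, DDI2 and, at 4 h, KEAP1 and ECPAS were named after their values were seen.

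Alternatives were limma voom (3.58.1), DESeq2 (1.42.0), its size factors, no TMM, other filters, only the groups compared, a replicate block, each library left out, and, added after seeing the data, removal of trends on transcript GC content or length. Data were simulated for OCI-AML3 at 24 h (14012 genes, 200 changed). The test recovered 56.1%, 89.6% and 94.0% of changes of 0.5, 1 and 2 (log2), with 3 false calls. Each gene was simulated from its mean over all 21 libraries, and no other gene changed. In the real comparison 27.7% of genes fell and 23.5% rose, so these rates may not hold for it.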

Additional observations from a re-analysis of the deposited data

Results flagged for a closer look

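The interaction terms marked these results for a closer look, since each says that the tunicamycin effect differed between times or lines (edgeR, adjusted p at most 0.05). Between 24 h and 4 h in OCI-AML3 it differed for 28 of the 36 genes, all lower at 24 h. Over all genes the effect was lower at 24 h for 20.3% and higher for 15.1%. The differences (log2) were -0.95 for PSMB6, -0.92 for PSMB3, -0.83 for PSMD8, -0.82 for PSMB7, -0.64 for PSMD14 and -0.55 for PSME2. PSMD14 was the 1 gene of these that had risen at 4 h and fallen at 24 h.

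Between HEK293T and OCI-AML3 at 24 h it differed for 18 of the 36 genes, all less negative in HEK293T. Over all genes the effect was higher there for 15.9% and lower for 10.9%. The count of 18 was 10 to 19 with 1 library left out. The differences were 0.85 for PSMB6, 0.76 for PSME2, 0.64 for PSMB3, 0.60 for PSMB7, 0.45 for PSME1, 0.36 for PSMB5 and 0.27 for PSME3. PSMB5 passed in 1 of 12 leave-outs, PSME3 in 2 and PSME1 in 5, and PSME3 did not pass without TMM or with another filter either. The lines were grown in different media and each is a single line, so line and culture cannot be told apart. No group had 4 or more libraries, so no single library was tested as an outlier.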

How the results depend on the processing

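At 24 h in OCI-AML3, 32 to 35 of the 36 genes fell and 1 rose under every alternative run, and the count for the difference between times kept within 1.5 times its value under each. With the trends on GC content or on transcript length removed, 8 genes fell and 4 rose at 4 h under either. Leaving out 1 library gave 3 to 6 genes that fell at 4 h (3 without tunicamycin 4 h replicate 3) and 2 to 6 that rose. In HEK293T, 14 to 17 genes fell when 1 library was left out (14 without tunicamycin replicate 1), 31 with only the groups compared, 28 without the length trend and 27 without TMM, and 1, NFE2L1, rose with only the groups compared or with the GC trend removed. The HEK293T median was -0.271 without TMM, -0.257 with no filter, -0.226 with only the groups compared, -0.278 without the GC trend, -0.265 without the length trend and -0.255 to -0.233 with 1 library left out.

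For the difference between lines, the count less negative in HEK293T was 10 to 19 with 1 library left out, and 1 gene was more negative there with the GC trend removed. Its median over the 36 genes was 0.286 in the main fit. It was 0.179 without TMM, 0.166 without the length trend and 0.158 to 0.29 with 1 library left out. Between DMSO at 4 h and 24 h, 0 to 2 genes rose with 1 library left out. PSMB6 at 4 h was 0.006 without the GC trend and -0.109 to 0.099 with 1 library left out, PSMB7 at 4 h -0.127 to 0.053 and PSME1 in HEK293T -0.026 to 0.102. The cause of these changes was not tested. Fewer libraries lower the power of every leave-out. Of 676 alternative values of single genes, 635 kept their direction and side of the threshold.

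Without TMM, 32.9% of all genes were lower and 15.2% higher at 24 h of DMSO against 4 h (21.6% and 21% with TMM). The split was 15.4% and 19.8% for the difference between times (20.3% and 15.1% with TMM) and 15.5% and 10.8% for that between lines (10.9% and 15.9% with TMM). Same-numbered libraries deviated together weakly at most (r of -0.139 to 0.199 over genes). In HEK293T each same-numbered r (0.044, 0.058 and 0.119) was above the best of the other pairings (0.026, 0.026 and -0.043). In OCI-AML3 at 24 h of tunicamycin against DMSO each (0.015, -0.079 and -0.139) was below it (0.094, 0.176 and 0.176). These values cannot settle whether the numbers pair the libraries. With the replicate block, 5 genes fell and 2 rose at 4 h, 33 fell and 1 rose at 24 h, 20 fell in HEK293T, and 28 and 17 differed between times and between lines. The standard errors of the 36 genes ran from 0.059 to 0.129 (log2) in the tunicamycin comparisons.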

Other observations

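Genes on either side of the proteasome were described from lists chosen with earlier results known. Over all genes 18.9% fell and 18.5% rose at 4 h, 27.7% fell and 23.5% rose at 24 h in OCI-AML3, and 13.1% fell and 12.6% rose in HEK293T. Of 6 ubiquitin genes and activating enzymes, the log2 fold changes at 4 h in OCI-AML3 ran from -0.21 to 0.18, and 3 fell at 24 h in OCI-AML3 and 1 in HEK293T. UBA1, the main enzyme that activates ubiquitin, fell by 0.46 at 24 h in OCI-AML3 and by 0.50 in HEK293T (log2). The ubiquitin gene UBB fell by 0.42 at 24 h in OCI-AML3.

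Of 9 genes for MHC class I antigen processing, which use peptides that the proteasome makes, 2 fell and 1 rose at 4 h, 2 fell and 2 rose at 24 h in OCI-AML3, and 1 fell and 2 rose in HEK293T. ERAP1, a peptidase that trims peptides in the ER, rose in all 3 comparisons, by 0.43, 1.35 and 1.48. Its relative ERAP2 fell by 0.46 at 4 h and rose by 0.55 at 24 h in OCI-AML3, and it fell by 0.66 in HEK293T. The peptide transporter subunit TAP2 fell by 0.36 at 24 h in OCI-AML3 and rose by 0.22 in HEK293T.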
